A study of Mus musculus with 10 samples.

Results

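The data compared 1 library of Otx2-/- mouse embryonic stem cells (ESCs) with 3 libraries of ESCs that carry Otx2, 2 from the R1 line and 1 from the E14 line. Of the 22867 gene symbols in the deposited expression tables, 11889 had a mean of at least 1 FPKM (fragments per kilobase of transcript, scaled to the number of fragments mapped in the library, so a level per length) over these 4 libraries and form the comparison. Each was set against the range of the 3 control libraries: 1854 (15.6%) lay above the highest control in Otx2-/- ESCs, 2069 (17.4%) lay below the lowest, and 7966 lay within. If all 4 libraries were interchangeable, the share outside the range would be larger than this. The counts alone therefore do not show that these genes were shifted. With small RNAs and entries listed at 0 left out, the genes farthest above included members of the 2-cell-like state, among them the Zscan4 copies on chromosome 7, and neighbouring genes on chromosome X. Of those below on the same terms, the imprinted gene Plagl1 lay farthest from the range. The naive pluripotency factors themselves lay at or near the control levels.

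The series followed ESCs and their conversion into epiblast-like cells (EpiLCs) by poly(A) RNA sequencing in 10 libraries. All lines are labelled as 129SV mice, and the Otx2-/- ESCs, like the R1 and E14 ESCs, were kept free of serum in N2B27 with LIF plus 0.8 µM PD0325901, which blocks MEK, and 3.3 µM CHIR99021, which blocks GSK3, after at least 5 passages of adaptation on polyornithine and laminin. The EpiLCs, 1 library of Otx2-/- and 3 of R1 and E14 cells, had been switched to bFGF and knockout serum replacement for 48 hours. Activin A had been added in 1 of the R1 libraries, and it is not stated for E14 and Otx2-/- EpiLCs. Further libraries came from Otx2-/- ESCs that carry a doxycycline-inducible (tetON) Otx2 transgene, 1 without doxycycline and 1 with it. The labels do not give the deleted part of Otx2, the number of clones behind the Otx2-/- line or its parental line, so the loss of Otx2 and the difference between lines cannot be told apart. In bulk RNA, fewer cells of a type and less RNA per cell cannot be told apart either.

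Otx2 is a homeodomain transcription factor of the bicoid class. It is needed for the head and forebrain of the embryo, and in pluripotent cells it is best known from the step at which naive ESCs turn into formative, epiblast-like cells, where it binds enhancers together with Oct4. Inhibition of MEK and GSK3 with LIF holds ESCs in the naive state of the early blastocyst. A small and changing share of such cells passes through a state in which genes of the 2-cell embryo, Zscan4 among them, are switched on.

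Otx2 itself (chr14:49277859-49282547 in mm9, the build of all gene positions below unless another is named) was listed at 7.85 FPKM in Otx2-/- ESCs, against 5.72 and 9.09 FPKM in R1 replicates 1 and 2 and 3.96 FPKM in E14 ESCs. The Otx2-/- value lay within the control range, and without the deleted part a value per gene does not check the genotype in ESCs. In EpiLCs the gene was at 15.8 FPKM in the Otx2-/- library, against 107, 151 and 39.9 FPKM in the R1 library without activin A, the R1 library with it and E14, below every control. The transgenic Otx2-/- ESCs had 45.8 FPKM without doxycycline and 1059 FPKM with it. Of 18 genes of anterior patterning and homeobox relatives of Otx2, 9 reached a mean of 1 FPKM, and their median difference on the log2(FPKM + 1) scale was 0.12. Sfrp1, a secreted Wnt antagonist, was above the range at 46.9 FPKM, against 27.5, 36.8 and 43.6 FPKM in R1 replicate 1, R1 replicate 2 and E14.

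The Otx2-/- library was among the more deeply sequenced, by a rough estimate from olfactory receptor genes. The lower quartile of their values above 0 was taken as the level of a single fragment. On that basis a transcript of 2 kb at 5 FPKM rests on roughly 205 fragments in Otx2-/- ESCs. It rests on 109, 206 and 120 in R1 replicates 1 and 2 and E14. R1 replicate 1 was the ESC library farthest from the rest. Among genes above 0 in both libraries of a pair and at 5 FPKM or more in 1 of them, small RNAs left out, 50 of 8617 differed at least 2-fold between Otx2-/- and E14 ESCs and 94 of 8705 between Otx2-/- ESCs and R1 replicate 2, but 659 of 8827 between Otx2-/- ESCs and R1 replicate 1, and 880 of 8903 between the 2 R1 libraries. Hprt and Mid1 on chromosome X, picked after their values were seen, lay with E14 rather than R1. Against the control median on the log2(FPKM + 1) scale, Hprt was at -6.66 in Otx2-/- ESCs and -6.54 in E14. In R1 replicates 1 and 2 it was at 0.36 and 0.00. Mid1 was at 4.85 and 4.72, against 0.00 and -0.955 in those R1 libraries. Other genes were not sorted in this way. Whether the Otx2-/- line shares its origin with E14 was not tested. Without R1 replicate 1, 3892 of 11891 genes (32.7%) lay above and 3412 (28.7%) below the other 2 controls. A position outside the range therefore carries little for a single gene.

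Apart from the 2-cell-like state, taken up below, defining markers of other cells were under 4 FPKM in all 4 libraries. The higher values were in controls for most. Gata6 and Sox17 of primitive endoderm were at 0.179 and 0.0227 FPKM in Otx2-/- ESCs, Cdx2 and Elf5 of trophoblast at 0.171 and 0.0304 FPKM, and T and Mixl1 of the primitive streak at 0.604 and 0.267 FPKM. In R1 replicate 1, Cdx2 and T reached 2.55 and 2.61 FPKM. The collagens Col1a1 and Col1a2, which mark feeder fibroblasts, were at 0.151 and 0.0191 FPKM, and Col3a1 was listed at 0 in all 4. The summed level of the 20 primitive endoderm genes was 268.7 FPKM in Otx2-/- ESCs, against 248.9 to 288.9 FPKM in the controls, and that of the 15 feeder genes was 46.5 FPKM against 40.3 to 47.0 FPKM. The 16 streak and mesoderm genes summed to 10.5 FPKM in Otx2-/- ESCs, against 9.6 to 23.3 FPKM in the controls, the highest being R1 replicate 1. The 12 trophoblast genes listed summed to 38.7 FPKM against 36.4 to 38.0 FPKM, and the 15 neural genes to 63.0 FPKM against 48.9 to 63.4 FPKM. The Y-linked gene Ddx3y was present in all, at 18.7 FPKM in Otx2-/- ESCs and 17.1, 19.2 and 17.2 FPKM in R1 replicates 1 and 2 and E14.

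A test across all genes left nothing to call apart from short transcripts and entries listed at 0. The spread it used also holds differences between R1 and E14, and that of activin A among the EpiLC controls. Genes it did not call are therefore not shown to be unchanged. limma on log2(FPKM + 1), fitted to the Otx2-/- and control libraries of both states on the assumption that the lone Otx2-/- library of each state has the spread of the others, tested 12271 genes and called 11 higher (0.0896%) and 6 lower (0.0489%) in Otx2-/- ESCs at an adjusted p under 0.05. The 11 were all small RNAs or entries under 200 bp. The 6 were all listed at exactly 0 in the Otx2-/- library and above 0 in every control. Among the remaining genes limma called 0, with 91 at an unadjusted p under 0.05 (132 of all 12271, 1.08%), and the smallest adjusted p was 0.183, for Gm2022.

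The 6 entries at 0 include genes of basic cell functions, and such a 0 can be a failed estimate. Hnrnpa3, an abundant RNA-binding protein of splicing complexes, was listed at 0 FPKM in Otx2-/- ESCs, against 1494, 1476 and 1685 FPKM in R1 replicates 1 and 2 and E14. Nudt16l1 was listed at 0 against 46.3, 46.0 and 51.4 FPKM, and the ubiquitin ligase gene Mgrn1, which the file gives the same span on chromosome 16, at 0 against 23.9, 22.0 and 22.0 FPKM. Ubp1, Setd1a (a histone H3 lysine 4 methyltransferase) and Myo5a (a myosin motor) were likewise listed at 0, with control values of 31.2 to 44.5, 18.7 to 30.7 and 3.64 to 4.83 FPKM. Wdr7, which limma did not call, was listed at 0 against 9.07, 5.57 and 6.83 FPKM. The reverse held for Setd5, Sec16a and Nav1, at 57.7, 22.1 and 7.34 FPKM in Otx2-/- ESCs and listed at 0 in all 3 controls, and for the entry AF357355. No fold change in ESCs is given for any of them. The differences between states printed further below for some of them rest on the same values at 0.

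At least 2-fold outside the range, meaning a difference of at least 1 in log2(FPKM + 1) from the nearest control with at least 5 FPKM in 1 of the 4 libraries, lay 56 genes above (0.471%) and 16 below (0.135%). Small RNAs made up 32 of the 56 and 6 of the 16. A further 4 and 7 were listed at 0 in at least 1 of the 4 libraries. This left 20 genes above, 9 of them in families of near-identical copies, and 3 below: Plagl1, Aass and Peg10. Without R1 replicate 1, the counts over all entries were 65 above and 22 below, and those of the remaining genes 23 and 4. Leaving out any 1 control gave 65 to 88 above and 22 to 40 below over all entries, and 23 to 28 above and 4 to 13 below among the remaining genes, each highest without E14. At the edge of the 2-fold rule, Maged1 lay just inside at 1.01 and Pdk3 just outside at 0.98 above the range, and Peg10 just inside at 1.00 and Hmga2 just outside at 0.96 below it. At the filter on level, Acot2 was just kept at a mean of 1.0003 FPKM and 4931428L18Rik just left out at 0.9996 FPKM.

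Genes of the 2-cell-like state were for the most part higher in Otx2-/- ESCs than in every control. Of 30 genes listed for this state, 24 were in the tables, and 19 of these lay above all 3 controls and 0 below, while 3 were listed at 0 in all 4 libraries (over all 22867 symbols without a filter, 16.6% lay above and 13.3% below). Of the 14 that reached a mean of 1 FPKM, 13 lay above the range, and of the 11 whose control mean alone reached 1 FPKM, 10 did and 0 lay below (15% and 17.7% over all such genes). The median difference of the 14 was 1.42 on the log2(FPKM + 1) scale, or 2.68-fold, and that of the 11 was 1.70, beside -0.03 over all genes of the comparison. The median of the 14 in single controls, each against the mean of the 3, was -0.40 in R1 replicate 1, 0.26 in R1 replicate 2 and 0.11 in E14. Without R1 replicate 1, 13 of the 14 again lay above, where 32.7% of all genes did, with a median of 1.34. limma gave an unadjusted p under 0.05 for 10 of the 12 it tested and an adjusted p under 0.05 for 0.

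The Zscan4 genes encode SCAN-domain zinc finger proteins of the 2-cell embryo that act on telomeres. They are copies lying side by side on chromosome 7, and the counting could split shared reads among them, so their single values are uncertain and they are not independent of each other. Zscan4d was at 14.3 FPKM in Otx2-/- ESCs, against 1.54, 3.25 and 3.11 FPKM in R1 replicates 1 and 2 and E14, a log2 difference of 2.11 (SE 0.38, limma adjusted p = 0.542). Zscan4a was at 15.7 FPKM, against 1.63, 4.41 and 4.03 FPKM, and Zscan4c and Zscan4f at 9.26 and 9.88 FPKM, against 1.22 to 3.19 FPKM in the controls. The Otx2-/- library was thus 2.90 to 4.39 times the highest control for the 4 copies, and R1 replicate 1 was the lowest library for each.

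How alike the copies are can be read from the bases just upstream of their transcription starts. In the 216 aligned bases that lie before the start of Zscan4c, Zscan4d and Zscan4f in the RefSeq annotation of GRCm38.p6, 7 positions differ, shown in capitals. Zscan4c and Zscan4f share 99.5% of the bases, Zscan4c and Zscan4d 97.2%, and Zscan4d and Zscan4f 96.8%. The windows are chr7:11005506-11005721 on the plus strand for Zscan4c, chr7:11166183-11166398 on the minus strand for Zscan4d and chr7:11397699-11397914 on the plus strand for Zscan4f.
Zscan4c: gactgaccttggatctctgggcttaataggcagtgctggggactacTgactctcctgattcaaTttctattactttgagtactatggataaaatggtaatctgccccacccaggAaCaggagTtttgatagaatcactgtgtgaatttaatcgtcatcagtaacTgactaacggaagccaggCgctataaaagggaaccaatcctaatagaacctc
Zscan4d: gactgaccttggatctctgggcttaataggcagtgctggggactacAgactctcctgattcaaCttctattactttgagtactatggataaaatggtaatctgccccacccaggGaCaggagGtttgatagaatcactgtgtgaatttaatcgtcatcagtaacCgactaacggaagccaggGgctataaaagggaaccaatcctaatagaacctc
Zscan4f: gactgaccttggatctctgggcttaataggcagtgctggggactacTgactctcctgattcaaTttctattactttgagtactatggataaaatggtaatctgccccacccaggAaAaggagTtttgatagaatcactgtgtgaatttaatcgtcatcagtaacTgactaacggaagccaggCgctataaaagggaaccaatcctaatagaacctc

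Other genes of this state were highest in the Otx2-/- library too. Gm8300 was at 12.2 FPKM in Otx2-/- ESCs, against 1.16, 2.47 and 3.15 FPKM in R1 replicates 1 and 2 and E14. Tmem92, a transmembrane protein gene, was at 6.71 FPKM, against 0.32, 2.36 and 2.03 FPKM, and Tdpoz3, of a family with TRAF and BTB domains, at 5.26 FPKM against 1.34, 1.24 and 1.52 FPKM. Dux, the double homeobox factor that switches on this program in the 2-cell embryo, was low, at 2.67 FPKM in Otx2-/- ESCs and 0.187, 0.890 and 0.780 FPKM in the same controls; it, Tdpoz3 and Eif1a were picked after their values were seen. Eif1a, a translation factor gene with copies of this state, was the 1 of the 14 within the range, at 91.8 FPKM against 119, 89.0 and 98.5 FPKM.

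**Figure D1:**
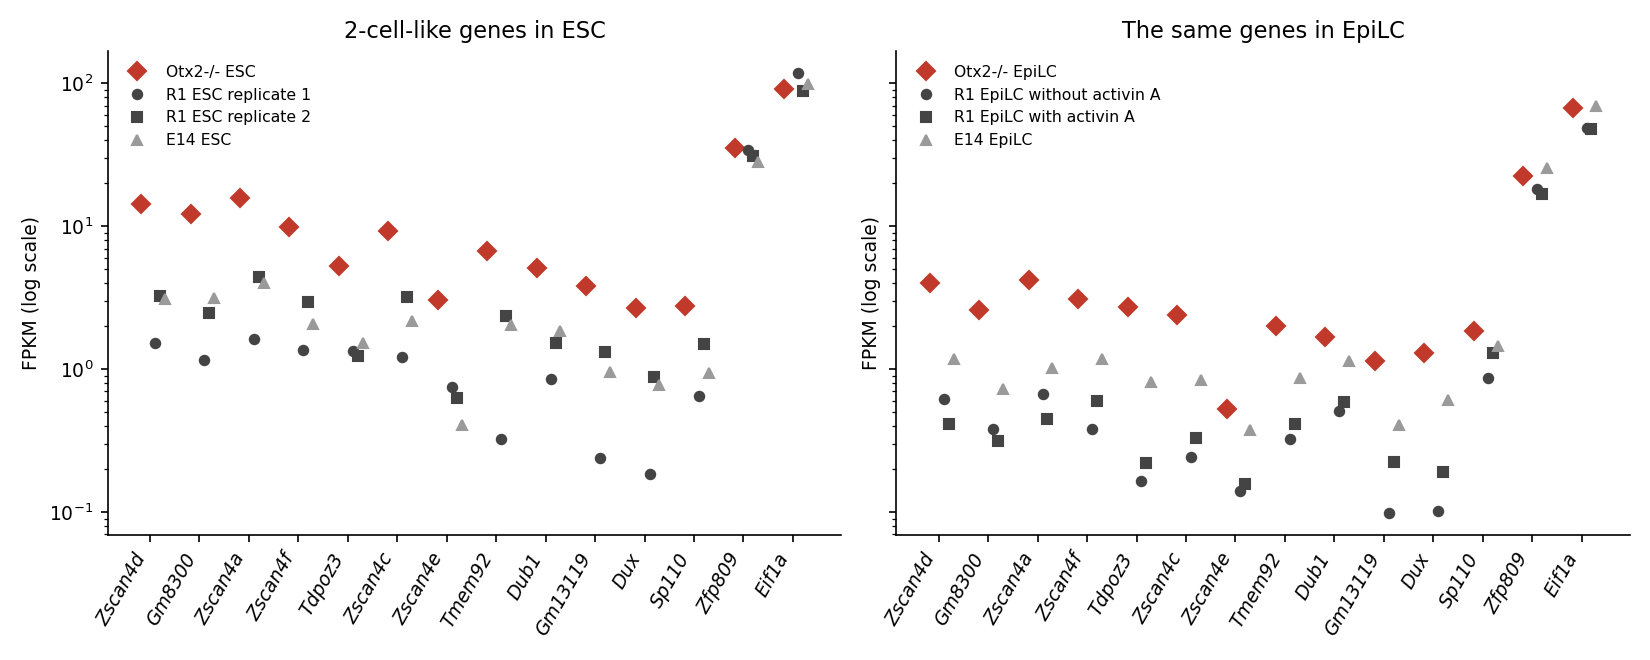
Level of 14 genes of the 2-cell-like state (FPKM, log axis) in Otx2-/- cells and each control library, 1 point per library, with ESCs in the left panel and EpiLCs in the right. For Zscan4d the Otx2-/- ESC library sits at 14.3 FPKM and its controls at 1.54 to 3.25 FPKM, and the Otx2-/- EpiLC library at 4.04 FPKM with its controls at 0.41 to 1.19 FPKM.

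The transgenic Otx2-/- ESCs, which were not used to find these genes, were also high: Zscan4d was at 17.7 FPKM without doxycycline and 29.5 FPKM with it, and Dux at 5.05 and 15.4 FPKM. The median difference of the 14 genes from the same 3 controls was 1.92 without doxycycline and 3.04 with it. These values share the controls of the Otx2-/- ESC values above. In both tetON libraries Otx2 itself was listed above every control ESC library, so they are not a repeat of the Otx2-/- ESCs. In EpiLCs, which share no library with the ESC comparison, 12 of the 14 lay above the range of the EpiLC controls and 0 below, with a median of 0.91 (26.7% and 26.4% of all genes of the ESC comparison lay above and below there). There Zscan4d was at 4.04 FPKM in Otx2-/- EpiLCs, against 0.62, 0.41 and 1.19 FPKM in R1 without activin A, R1 with it and E14.

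Genes outside the list that stood far above the range include further transcripts with little known function. Gm7102 was at 64.6 FPKM in Otx2-/- ESCs, against 5.25, 23.4 and 15.3 FPKM in R1 replicates 1 and 2 and E14. Gm12794, which RefSeq names Pramel19, was at 16.6 FPKM, against 1.79, 4.54 and 3.97 FPKM, and Gm8994, which RefSeq names Eif4a3l1, at 20.9 FPKM against 2.71, 8.35 and 6.54 FPKM. In each the Otx2-/- library was the highest and R1 replicate 1 the lowest, as for Zscan4.

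The transcribed pseudogenes Gm4971 and Gm5039 were at 8.99 and 10.6 FPKM in Otx2-/- ESCs, and the highest control of each was 2.36 and 3.72 FPKM. D17Ertd648e, annotated as a long noncoding RNA, was at 48.4 FPKM, against 6.07, 19.4 and 18.3 FPKM. Abt1, which encodes an activator of basal transcription, was at 102 FPKM in Otx2-/- ESCs, against 33.4, 42.9 and 43.1 FPKM, or 2.37 times the highest control (log2 difference 1.35, SE 0.31, limma adjusted p = 1.0). Dcdc2c, a doublecortin-domain gene, was at 38.4 FPKM against 8.43, 18.3 and 18.4 FPKM. Among near-identical copies, Gm2022 was at 16.7 FPKM against 2.73 to 4.38 FPKM, and the deubiquitinase genes Dub1 and Dub1a were at 5.09 and 5.86 FPKM against 0.85 to 1.86 FPKM.

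The remaining genes far above the range, Apoo and Maged1, lie in a stretch of chromosome X whose genes were high together. From Pola1 to Gspt2, in 1334 kb (chrX:90550105-91883900), 10 genes averaged 1 FPKM or more, and 9 of them lay above the range of the 3 controls in Otx2-/- ESCs. The bounds of this stretch were set after its values were seen. For its 9 genes that averaged 5 FPKM or more, the median difference from the per-gene median of the controls was 1.07 on the log2(FPKM + 1) scale, or 2.1-fold, with a span of 0.61 to 1.13. It was 0.13 in R1 replicate 1, -0.09 in R1 replicate 2 and 0.00 in E14. The other 260 genes of chromosome X had a median of 0.02 in Otx2-/- ESCs.

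The genes of the stretch have unrelated roles. Pola1, the catalytic subunit of DNA polymerase alpha, was at 68.1 FPKM in Otx2-/- ESCs, against 35.1, 29.8 and 31.9 FPKM in R1 replicates 1 and 2 and E14. Maged1, of the MAGE family, was at 122 FPKM, against 55.7, 52.6 and 60.04 FPKM, and Pdk3, a kinase that restrains pyruvate dehydrogenase, at 43.6 FPKM against 16.8, 21.6 and 20.2 FPKM. For these genes the 3 controls lay close together and the Otx2-/- library lay well clear of them.

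Zfx, a zinc finger factor of ESC self-renewal, was at 16.9 FPKM in Otx2-/- ESCs, against 7.36, 7.44 and 8.62 FPKM. Apoo, a protein of the mitochondrial inner membrane, was at 46.0 FPKM against 21.9, 20.6 and 22.2 FPKM, and Gspt2, a translation termination factor, at 13.3 FPKM against 7.77, 5.86 and 6.46 FPKM. Pcyt1b, an enzyme of phosphatidylcholine synthesis, and Klhl15 also lay above, at 51.0 and 5.90 FPKM. Eif2s3x, a subunit of translation initiation factor 2, was above by less, at 287 FPKM against 258 FPKM in R1 replicate 1 and 122 and 146 FPKM in R1 replicate 2 and E14. The noncoding AU015836 was the 1 gene within the range, at 6.44 FPKM against 7.24, 3.89 and 2.48 FPKM. No gene of the stretch passed the adjusted limma test: Maged1 had a log2 difference of 1.11 (SE 0.18, adjusted p = 0.384), Zfx one of 1.02 (SE 0.17, adjusted p = 0.384) and Pola1 one of 1.06 (SE 0.19, adjusted p = 0.542).

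**Figure D2:**
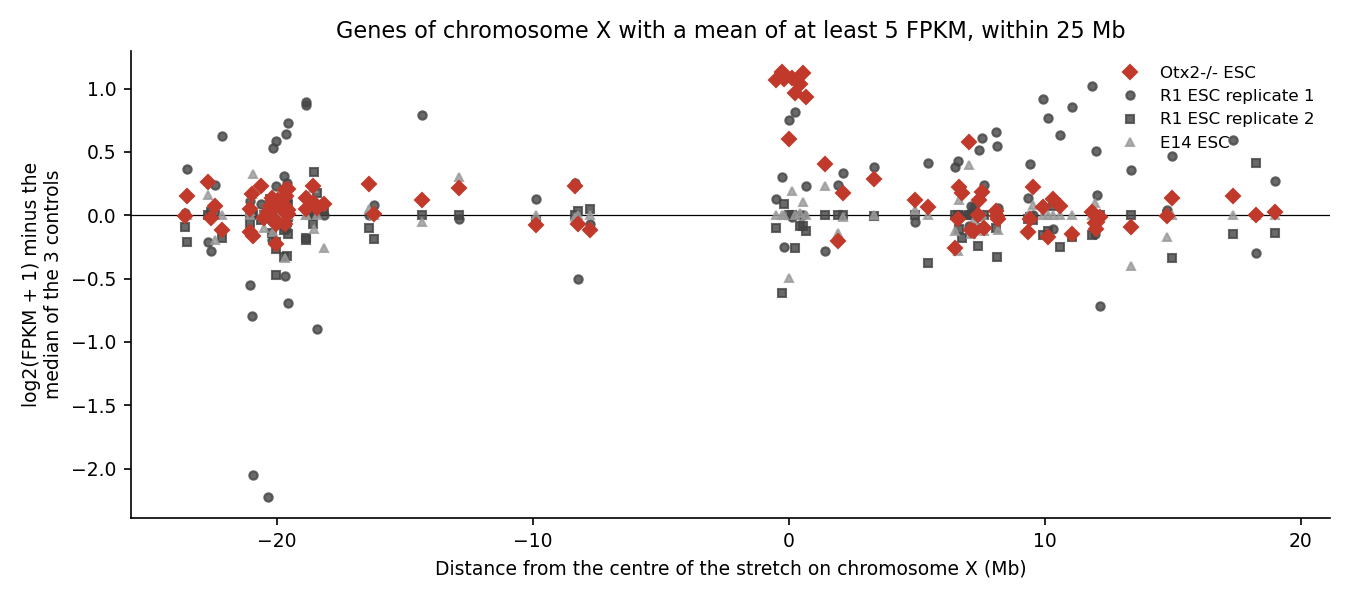
Difference of each chromosome X gene that averaged 5 FPKM or more from the median of the control ESC libraries (log2 of FPKM + 1), by distance in Mb from the centre of the stretch, up to 25 Mb on either side, for Otx2-/- ESCs and each control ESC library. The 9 genes of the stretch sit at 0.61 to 1.13 in Otx2-/- ESCs, and no other gene shown reaches that level in them.

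Genes on either side of the stretch were closer to their controls. Among genes that averaged 5 FPKM or more, the nearest before the stretch, Nr0b1, lies 7109 kb away. It was at 63.8 FPKM in Otx2-/- ESCs, against 66.0, 71.6 and 69.2 FPKM in R1 replicates 1 and 2 and E14. The nearest after the stretch at that level, Fam123b, lies 732 kb away and was at 7.004 FPKM, against 3.99, 5.05 and 6.10 FPKM. Fam123b was above its highest control by a smaller ratio than the genes above the range in the stretch, other than Eif2s3x. Genes at a lower level in between are not shown. Of 8291 windows of 9 neighbouring genes over the genome, the one at this stretch had the highest median. The highest apart from it reached 0.33 and the lowest, on chromosome 10, was -0.43. The window width equals the number of genes of the stretch that averaged 5 FPKM or more. The bounds came from the same Otx2-/- library, so this rank adds no separate support. The medians of whole chromosomes in Otx2-/- ESCs lay between -0.057 on chromosome 10 and 0.087 on chromosome Y, which had 3 genes. In EpiLCs, whose libraries were not used to set the bounds, 9 of the 10 genes lay above the range, where 26.7% of all genes did, with a median of 1.16. Against the same 3 ESC controls the median was 0.79 in the tetON library without doxycycline. With doxycycline it was 0.59, with single genes between -2.38 and 2.37.

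Plagl1, a paternally expressed imprinted gene for a zinc finger factor that restrains growth, stood farthest below the range once small RNAs and entries listed at 0 were left out. It was at 5.09 FPKM in Otx2-/- ESCs, against 28.2, 24.1 and 16.0 FPKM in R1 replicates 1 and 2 and E14, a log2 difference of -1.93 (SE 0.32, limma adjusted p = 0.384). In the tetON library without doxycycline it was at 9.93 FPKM, also under every control. Peg10, an imprinted gene derived from a retrotransposon, was at 24.7 FPKM in Otx2-/- ESCs, against 69.8, 50.4 and 52.3 FPKM (log2 difference -1.17, SE 0.29, limma adjusted p = 1.0), and at 34.7 FPKM in that tetON library. Imprinted genes as a list did not share this direction. Of the 19 that reached the filter among 27, 3 lay above the range and 4 below, with a median of -0.08; Cdkn1c, an inhibitor of the cell cycle, lay above at 7.84 FPKM against 4.57, 2.64 and 5.06 FPKM, and Rian at 75.1 FPKM against 58.7 and 71.3 FPKM in R1 replicate 2 and E14 and 0 in R1 replicate 1.

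Aass, the first enzyme of lysine breakdown, was at 1.66 FPKM in Otx2-/- ESCs, against 6.12, 6.71 and 4.46 FPKM in R1 replicates 1 and 2 and E14. It was also low in both tetON libraries, at 1.83 FPKM without doxycycline and 1.85 FPKM with it. Hmga2, a chromatin protein of early embryonic cells, was at 5.06 FPKM in Otx2-/- ESCs, against 29.6, 14.6 and 10.8 FPKM, and at 8.04 FPKM in the tetON library without doxycycline. In EpiLCs Hmga2 was again under every control, at 6.20 FPKM in Otx2-/- EpiLCs against 21.6, 18.1 and 13.2 FPKM. Both genes lay under every control in ESCs and in EpiLCs, and neither passed the adjusted limma test.

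Utf1, a chromatin factor of pluripotent cells, was at 83.5 FPKM in Otx2-/- ESCs, against 256, 183 and 163 FPKM in R1 replicates 1 and 2 and E14. It was not low in the tetON library without doxycycline, at 259 FPKM, nor in Otx2-/- EpiLCs, at 346 FPKM. The mitochondrial nuclease gene Endog was at 3.84 FPKM against 8.197 to 11.1 FPKM, and Bbc3, which encodes the cell death inducer Puma, at 2.92 FPKM against 6.10 to 8.57 FPKM. The lipase gene Liph, the lysosomal membrane gene Laptm4b, Nptx2, Scand1, Ccdc3, the mTORC1 inhibitor Ddit4 and the actin-capping gene Capg were the rest of the 15 farthest below apart from Wdr7, at 0.532 to 0.637 times the lowest control.

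Base composition moved with the position of a gene. Across 7613 genes the Spearman correlation of the difference in Otx2-/- ESCs with GC content was -0.22, and those of the controls, each likewise set against the median of the 3, were -0.08, -0.11 and 0.17 in R1 replicates 1 and 2 and E14. In the tetON library without doxycycline it was 0.38, the other way. The share of genes below the range was 25.4% among transcripts over 60% GC and 12.5% among those up to 40%, and the shares above were 8.71% and 21.4%. Utf1, Endog, Bbc3 and Scand1 have 63.5, 64.3, 65.2 and 68.4% GC, while Plagl1, Peg10, Hmga2 and Aass have 44.3 to 47.2%. The median of genes of the same GC class was subtracted only from the list medians, and single values were not corrected. For the 14 ERK targets this gave -0.42, against -0.50 without it. For the 12 of 14 2-cell-like genes with a GC value it gave 1.60, against 1.42 for all 14 without it. These last values come from unlike sets of genes, so their difference does not measure the subtraction.

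**Figure D3:**
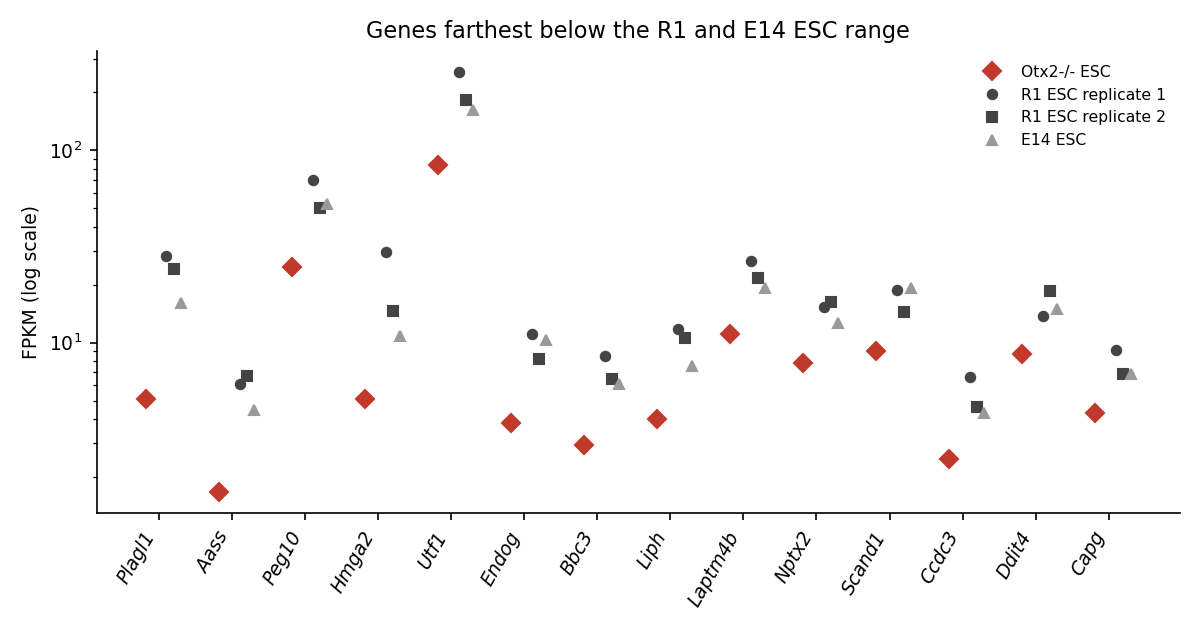
Level of the genes farthest below the control range (FPKM, log axis) in Otx2-/- ESCs and each control ESC library, 1 point per library. Plagl1 sits at 5.09 FPKM in Otx2-/- ESCs and at 16.0 to 28.2 FPKM in the controls, and Capg, the nearest to its range, at 4.30 FPKM with controls at 6.83 to 9.11 FPKM.

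The naive pluripotency network was near the control level. Of 19 naive factors that reached the filter, 3 lay above the range, 4 below and 12 within, with a median of 0.04. Klf4 was at 82.1 FPKM in Otx2-/- ESCs, against 101, 73.7 and 88.4 FPKM in R1 replicates 1 and 2 and E14, Esrrb at 214 FPKM against 217, 194 and 214 FPKM, and Tfcp2l1 at 175 FPKM against 175, 117 and 166 FPKM. Tbx3 and Zfp42 (Rex1) lay within the range too, at 57.3 and 449.5 FPKM. Nanog lay just above it, at 562 FPKM against 364, 502 and 545 FPKM, and Fbxo15, a target of Oct4 and Sox2, at 219 FPKM against 128, 158 and 181 FPKM. Sox15 lay below, at 7.71 FPKM against 18.7, 18.05 and 10.04 FPKM, and Dppa3 (Stella) at 1.31 FPKM against 2.07, 4.06 and 1.65 FPKM.

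Among 16 general pluripotency genes 1 lay above the range and 6 below (15.6% and 17.4% over all genes), with a median of -0.17. Without R1 replicate 1 the counts were 5 above and 8 below (32.7% and 28.7% over all genes) and the median -0.05. Pou5f1 (Oct4) was at 861 FPKM in Otx2-/- ESCs, against 1018, 957 and 947 FPKM in R1 replicates 1 and 2 and E14, and Sox2 was within the range at 179 FPKM. Foxd3 was at 16.8 FPKM against 21.8, 18.3 and 27.2 FPKM.

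The primed and formative genes, which Otx2 is known to act on in EpiLCs, showed no shared direction in ESCs. Of 21 that reached the filter, 3 lay above and 6 below, with a median of -0.14. Fgf5, the usual marker of the primed epiblast, was low everywhere, at 0.451 FPKM in Otx2-/- ESCs and 0.809, 0.590 and 0.566 FPKM in R1 replicates 1 and 2 and E14. Dnmt3b, a de novo DNA methyltransferase, was within the range at 36.2 FPKM against 77.1, 28.6 and 39.7 FPKM. Lef1 was lower than every control, at 4.06 FPKM against 8.78, 7.29 and 5.56 FPKM, while the zinc finger gene Zic5 lay above at 12.5 FPKM against 4.09, 11.2 and 9.63 FPKM, and the Hippo-pathway factor gene Tead2 at 69.3 FPKM against 28.1, 68.7 and 64.0 FPKM.

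Among signalling targets, those of ERK stood lowest. These genes are switched on by FGF through MEK and ERK, which PD0325901 blocks in all 4 cultures. Of 14, 8 lay below the range and 0 above (17.4% of all genes lay below), with a median of -0.50; the single controls had medians of 0.29 in R1 replicate 1, -0.23 in R1 replicate 2 and -0.09 in E14. Without R1 replicate 1, 10 lay below and 1 above (28.7% and 32.7% of all genes did), and the median was -0.25. limma gave an unadjusted p under 0.05 for 0 of the 14.

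Spry4, a feedback inhibitor of the pathway, was at 6.05 FPKM in Otx2-/- ESCs, against 31.5, 7.60 and 8.57 FPKM in R1 replicates 1 and 2 and E14. Dusp6, the phosphatase of ERK, was at 8.53 FPKM against 28.6, 8.66 and 10.3 FPKM. Spry2 and Myc lay within the range, at 30.9 and 4.02 FPKM. In all 4 genes R1 replicate 1 was far above the other 3 libraries, and the Otx2-/- value was nearest to that of R1 replicate 2. The median was -0.12 in the tetON library without doxycycline and 0.29 in Otx2-/- EpiLCs.

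Wnt targets, which CHIR99021 activates, had 4 of 12 below the range and 0 above, with a median of -0.34 (-0.16 without R1 replicate 1). Lef1 is among them, and Axin2, a feedback inhibitor of the pathway, was within the range at 7.56 FPKM against 23.5, 5.89 and 6.96 FPKM. BMP targets had 2 of 10 below and 0 above. Over all genes 17.4% lay below and 15.6% above. Bmp4 was at 8.38 FPKM against 36.8, 9.99 and 13.3 FPKM. The Nodal and activin genes were split, with 4 of 18 above and 4 below: the effector Smad3 was at 7.76 FPKM against 3.88, 5.76 and 5.24 FPKM, and the Nodal antagonist Lefty1 at 31.7 FPKM against 26.6, 17.7 and 28.3 FPKM, while Gdf1 was below. LIF and Stat3 genes lay within the range in 14 of 15 cases, and Socs2, an inhibitor of cytokine signals, was below at 12.7 FPKM against 31.6, 15.5 and 18.4 FPKM.

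**Figure D4:**
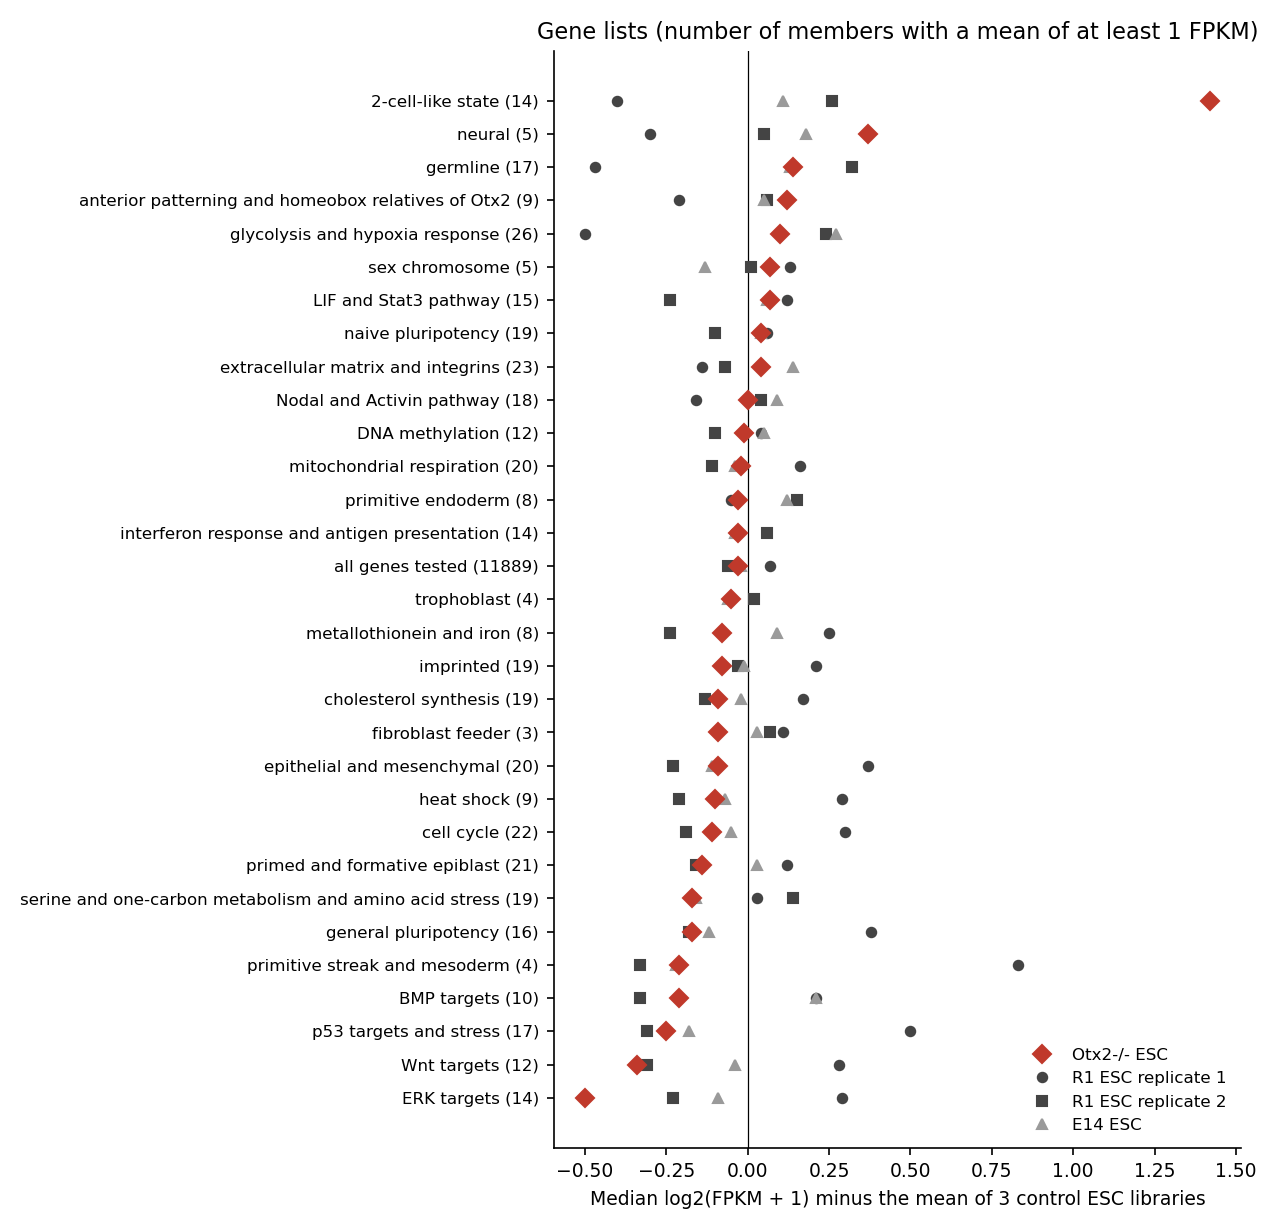
Median difference of each gene list from the control mean (log2 of FPKM + 1) in Otx2-/- ESCs and in each control ESC library, with the number of genes tested. The 2-cell-like list sits at 1.42 in Otx2-/- ESCs, the ERK targets at -0.50 and all genes at -0.03.

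Of 17 p53 targets 5 lay below and 0 above (median -0.25, and -0.06 without R1 replicate 1); Gadd45a was at 5.91 FPKM against 11.02, 10.7 and 7.20 FPKM and the cell cycle inhibitor gene Cdkn1a at 30.1 FPKM against 62.7, 36.2 and 35.3 FPKM. Of 19 serine, one-carbon and amino acid stress genes 6 lay below and 1 above (median -0.17), with the glycine-cleaving enzyme gene Gldc at 38.2 FPKM against 86.2, 49.6 and 52.5 FPKM. Cholesterol synthesis had 5 of 19 below and 0 above, and glycolysis 6 of 26 below and 1 above (median 0.10), with Gapdh at 925 FPKM against 2059.8, 966 and 1111 FPKM. Without R1 replicate 1, 17 of the 26 glycolysis genes lay below and 1 above, and the median was -0.13. Over all genes 15.6% lay above and 17.4% below the 3 controls, and 32.7% and 28.7% without R1 replicate 1. Of 17 germline genes 6 lay above and 4 below (median 0.14), and without R1 replicate 1 the counts were 6 above and 8 below and the median -0.14. Tex19.1, which protects the germline from retrotransposons, was at 40.8 FPKM against 16.1, 23.5 and 30.8 FPKM, and the meiosis gene Stra8 at 10.8 FPKM against 0.354, 9.51 and 8.25 FPKM.

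Neural genes had 3 of 5 above the range and 0 below, with a median of 0.37 (3 above, 1 below and 0.20 without R1 replicate 1). Pax6 was at a low level, at 1.72 FPKM in Otx2-/- ESCs against 0.947, 1.01 and 0.865 FPKM in R1 replicates 1 and 2 and E14. The 8 primitive endoderm genes that reached the filter all lay within the range. Trophoblast genes had 1 of 4 above and 2 below, streak and mesoderm genes 0 of 4 above and 1 below, and feeder genes 1 of 3 above and 1 below. Of 20 epithelial and mesenchymal genes 1 lay above, the galectin gene Lgals1 at 76.5 FPKM against 47.7, 37.8 and 54.8 FPKM, and 6 below, among them the tight junction gene Cldn6 at 6.23 FPKM against 16.2, 11.8 and 7.83 FPKM. Matrix and integrin genes had 3 of 23 above and 1 below. Counts above and below were 2 and 1 of 12 for DNA methylation, 3 and 5 of 20 for mitochondrial respiration and 3 and 4 of 22 for the cell cycle. They were 4 and 4 of 14 for the interferon response, 0 and 2 of 8 for metallothionein and iron genes, 3 and 1 of 9 for heat shock and 1 and 1 of 5 for sex chromosome genes. The medians of these last groups lay between -0.11 and 0.07. Over all genes 15.6% lay above the range and 17.4% below.

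The genes at least 2-fold outside the ESC range were followed in EpiLCs, where no library is shared with the ESC comparison. Leaving out small RNAs and entries at 0, 20 of 20 genes above the ESC range lay above the range of the 3 EpiLC controls too, where 26.7% of all genes of the ESC comparison did. Of the 3 below, 2 were again below, Plagl1 and Aass, where 26.4% of all genes were. Plagl1 was near its floor in EpiLCs, at 0.0969 FPKM in the Otx2-/- library against 0.494 to 0.780 FPKM, and Aass was at 9.29 FPKM against 12.6 to 17.997 FPKM. Peg10 was within the EpiLC range at 167 FPKM against 126 to 183 FPKM. With small RNAs and entries at 0 kept, 28 of 56 and 4 of 16 were on the same side.

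**Figure D5:**
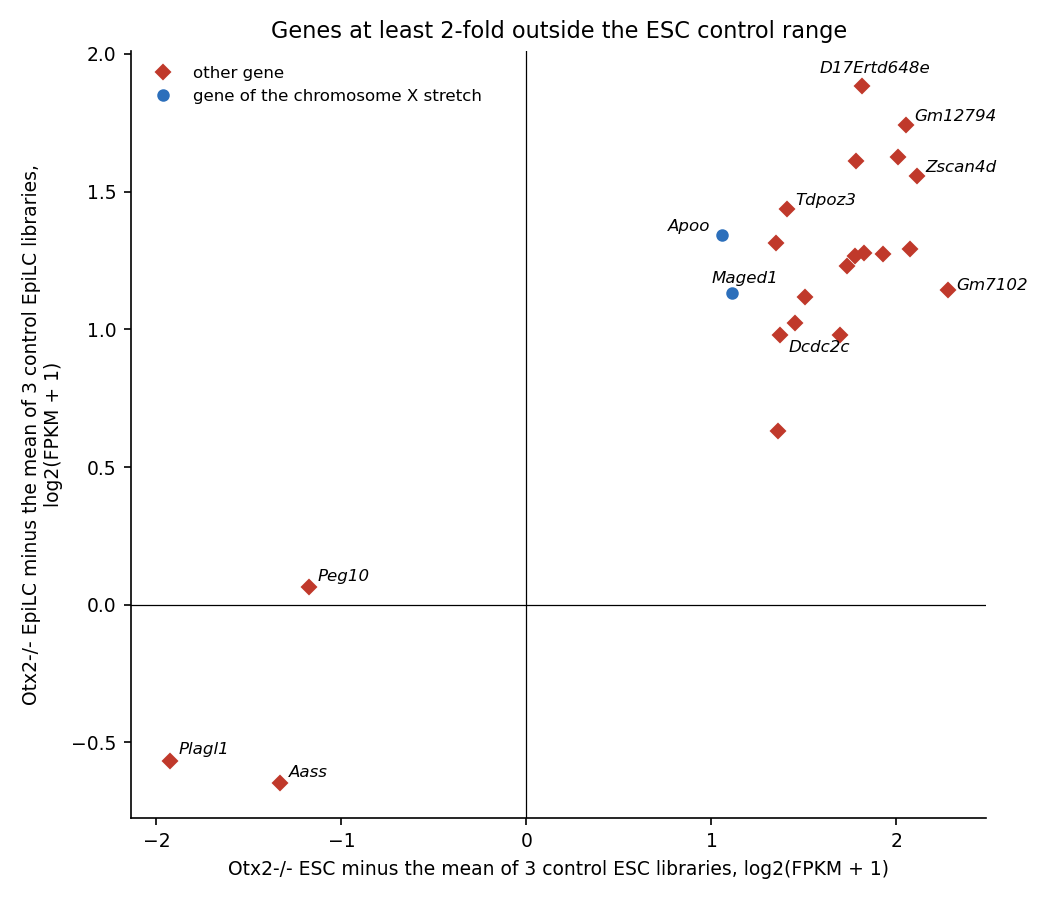
Difference of Otx2-/- cells from the control mean in EpiLCs against that in ESCs (log2 of FPKM + 1) for the 23 genes at least 2-fold outside the ESC range, with the genes of the chromosome X stretch in blue. All 20 genes above the range in ESCs have positive values in EpiLCs, from 0.63 for Dub1 to 1.88 for D17Ertd648e, and Peg10 sits at 0.06.

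The difference between the Otx2-/- effects in EpiLCs and in ESCs passed the limma test for 34 of 12271 genes (0.277%), 22 with a higher (0.179%) and 12 with a lower value (0.0978%) in EpiLCs. With the cell line as a block, the same 34 genes passed. All but 1 were small RNAs or entries listed at 0 in 1 of the libraries. The exception was BC017158, at 4.18 FPKM in Otx2-/- ESCs against 1.97, 2.27 and 3.14 FPKM in R1 replicates 1 and 2 and E14, and at 190.03 FPKM in Otx2-/- EpiLCs against 1.77, 1.93 and 3.66 FPKM (difference of the effects 5.23, limma adjusted p = 0.0132).

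Promoters were searched for TAATCC, the core sequence bound by bicoid-class homeodomains, and its reverse complement GGATTA, from 250 bases before to 50 bases after the RefSeq start in GRCm38.p6. It was present in 557 of the 8292 promoters available among all genes of the comparison (6.72%). Of the 20 genes at least 2-fold above the range 8 had a promoter in the table, and 1 of them, D17Ertd648e, held the sequence. It was in 0 of the 11 promoters available for the 15 genes farthest below and in 0 of 8 for the chromosome X stretch. With so few promoters these counts cannot be told from the 6.72% over all genes, and enhancers were not searched.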

How the data were processed

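Per the labels' protocols, cDNA was primed on poly(A) RNA by random hexamers and read on the Illumina Genome Analyzer. The submitters' processing notes name TopHat, Cufflinks and mm9; for versions, annotation and strand setting the sources used here state nothing. The authors deposited FPKM per gene for each library. Repeated entries of a symbol were summed (23112 entries, 22867 symbols). FPKM holds no counts, so depth was only estimated and no counting interval is given.

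Levels were compared as log2(FPKM + 1), a scale that understates low genes. Genes that averaged 1 FPKM or more were placed against the control range. limma 3.58.1 (eBayes with trend, Benjamini-Hochberg, R 4.3.3) was fitted to 8 libraries with 4 residual degrees of freedom and tested on simulated data. With 1 library against 3 an exact permutation test of a single gene cannot go below p = 0.25. The labels do not say whether control libraries came from separate cultures, so the spread may be technical. GC content and promoters came from transcripts and RefSeq tables of GRCm38.

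The genes named were Otx2, 10 markers, those limma called other than small RNAs, the 15 farthest above and 15 farthest below the range, and the 5 farthest members of each described list; others were chosen after their values were seen, as were the bounds of the chromosome X stretch. Genes, lists and tests were chosen with earlier results of these data known. Alternatives were the pseudocount, the filter, quantile and median-ratio scaling, the libraries fitted and each control left out.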

Additional observations from a re-analysis of the deposited data

Results flagged for a closer look

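The 6 genes given here are only part of those that limma's test called for a difference between states. That difference is the log2 effect of Otx2-/- in EpiLCs minus that in ESCs. Line and genotype cannot be told apart here. In 5 of them the ESC effect rests on an Otx2-/- ESC value listed at 0, and the difference rests on the same value: Hnrnpa3 had a difference of 10.66 (adjusted p = 0.000131), Nudt16l1 one of 5.79 (adjusted p = 0.000382) and Ubp1 one of 5.31 (adjusted p = 0.00149). Setd1a had a difference of 5.09 (adjusted p = 0.0143) and Mgrn1 one of 4.46 (adjusted p = 0.000483). For BC017158 no library was at 0: the difference was 5.23 (limma adjusted p = 0.0132), with 190.03 FPKM in the 1 Otx2-/- EpiLC library and at most 4.18 FPKM in the other 7 libraries fitted. Groups of 3 controls were not tested for single libraries that stand apart.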

How the results depend on the processing

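The 7 genes whose log2 difference is printed with an SE kept their direction and their side of the threshold in 90 of 90 alternatives. Of 763 alternative distances of 98 of the named genes from the nearest control, 25 moved and 0 changed sides. The limma counts moved most, through small RNAs and entries at 0. The 11 genes called higher became 0 with the filter at 5 FPKM, 29 with no filter, 29 in a fit of the ESC libraries alone, 0 with the tetON library without doxycycline as a second Otx2-/- library, and 0 to 20 with 1 control left out; the 6 called lower became 11 at a pseudocount of 0.1, 0 with the tetON library and 0 to 10 with 1 control left out. Calls that are neither small RNAs nor at 0 went to 2 with no filter, against 0. For the difference between EpiLCs and ESCs, 22 higher became 9 with the filter at 5 FPKM and 37 with no filter, 12 lower became 2 with the filter at 5 FPKM and 13 to 23 with 1 control left out, and the 1 gene neither small nor at 0 became 0 at a pseudocount of 0.1 and 0 to 2 with 1 control left out. Of genes at least 2-fold outside the range, 56 above became 37 with the filter at 5 FPKM and 65 to 88 with 1 control left out, and the 20 without small RNAs and entries at 0 became 12 with that filter. The 16 below became 22 to 40 with 1 control left out, and the 3 without small RNAs and entries at 0 became 7 at a pseudocount of 0.1 and 4 to 13 with 1 control left out, the highest without E14. The naive pluripotency median of 0.04 lay between -0.08 and 0.05 with 1 control left out, and the 2-cell-like median of 1.42 was 2.17 at a pseudocount of 0.1. The cause of these moves was not tested beyond what fewer genes or libraries give by construction. Of all list medians 11 of 239 alternatives moved, and of chromosome medians 19 of 176. Subtracting the median of genes of the same GC class and leaving R1 replicate 1 out of the list counts were added after seeing the data. For the difference between EpiLCs and ESCs, a fit with cell line (R1, E14, Otx2-/-) as a block, also added after seeing the data, called 22 higher, 12 lower and 1 neither small nor at 0, 34 genes in all and the same 34 as without the block. The ESC difference itself cannot be paired, since the line is the genotype. What limits the single values most is the 1 Otx2-/- library and the distance of R1 replicate 1 from the other controls.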
